A study of Mus musculus with 20 samples.

Results

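Hair keratins and keratin-associated proteins are the structural proteins of the hair fibre and of the sheath that moulds it, and their transcripts were followed here in hair follicle stem cells, the cells of the follicle's bulge region. The set held every gene on the array whose symbol begins with Krtap, together with Krt25 to Krt28, Krt31 to Krt36 (Krt33a and Krt33b included), Krt71 to Krt75, Krt81 to Krt84 and Krt86. It came to 74 of the 22907 genes that could be named. Total RNA from cells labelled as hair follicle stem cells of male mice was hybridised to 1-colour Agilent arrays, 20 in all. Anagen, the growth phase of the hair cycle, had 5 arrays, 1 each from mice on a high fat diet (HFD) for 3 months, on HFD for 4 days, aged mice, and mice on a normal diet (ND) for 3 months or for 4 days. Telogen, the resting phase, had 15 arrays, 3 from each of the same conditions. The mice of the 3-month diets were 5 months old, those of the 4-day diets 2 months old and the aged mice 24 months old. Strain, diet of the aged mice and the isolation of the cells are not given in the sources used here, and nothing there says that arrays of a group came from separate animals, so the p-values rest on a spread between samples that may be partly technical.

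Keratins assemble as pairs of an acidic type I and a basic type II chain. Krt25 to Krt28 (type I) and Krt71 to Krt73 (type II) form the filaments of the inner root sheath, Krt75 is the keratin of the companion layer that lies between the inner and outer sheaths, and the others build the cells of the hair shaft. Keratin-associated proteins (KAPs) fill the space between the shaft filaments and cross-link them. In the growing follicle these genes are switched on in descendants of matrix cells, below the bulge from which the stem cells come.

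The 74 genes comprised 8 inner root sheath keratins (Krt74, a transcribed pseudogene, among them), 1 companion layer keratin, 7 type I and 5 type II hair shaft keratins and 53 KAP genes. They lie in clusters, 33 on chromosome 11, 23 on chromosome 16, 10 on chromosome 15, 5 on chromosome 7 and 3 on chromosome 10. Between 41 and 51 of them were well above background on an anagen array (55.4% to 68.9%, median 62.2%), against 40 to 61 on a telogen array (54.1% to 82.4%, median 66.2%). Over all named genes the shares were 66.3% to 75.9% in anagen (median 75.2%) and 68.9% to 87% in telogen (median 77.4%), so the median share of hair genes was the lower one in both phases. Well above background on all 20 arrays were 34 of the 74, made up of 5 inner root sheath keratins (Krt26, Krt28, Krt71, Krt72 and Krt74), Krt31 and Krt32 of type I, Krt81 of type II and 26 KAP genes. A further 5 KAP genes, Krtap1-3, Krtap2-4, Krtap12-1, Krtap13-1 and Krtap19-3, were well above background on 0 arrays. Another 12 KAP genes passed on telogen arrays alone, where there are 15 chances against 5 in anagen, and 2, Krtap4-9 and Krtap6-2, on 1 anagen array alone.

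A level below is the log2 of the processed intensity divided by the 75th percentile of its array, so that 0 stands for that percentile. Levels of one gene can be set against each other across arrays, whereas probes of different genes cannot. Testing required a probe well above background in any 1 telogen group (its 3 arrays) or on 3 or more of the anagen arrays, which left 54 of the 74 (20 keratins and 34 KAP genes). The 20 untested members were Krt36, above background on 2 arrays, and 19 KAP genes, each above background on at most 5 arrays. The bulge markers Cd34 and Krt15 were well above background on all 20 arrays. Spots well above background made up 60.7% to 83.49% of an array. Slide 1 held both 3-month telogen groups and the ND 3 months anagen array. Slide 2 held both 4-day telogen groups and the HFD 3 months and ND 4 days anagen arrays, and slide 3 the aged arrays of both phases and the HFD 4 days anagen array. Anagen arrays always lay in column 1 and telogen arrays in columns 2 to 4, so phase and column cannot be told apart.

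**Figure D1:**
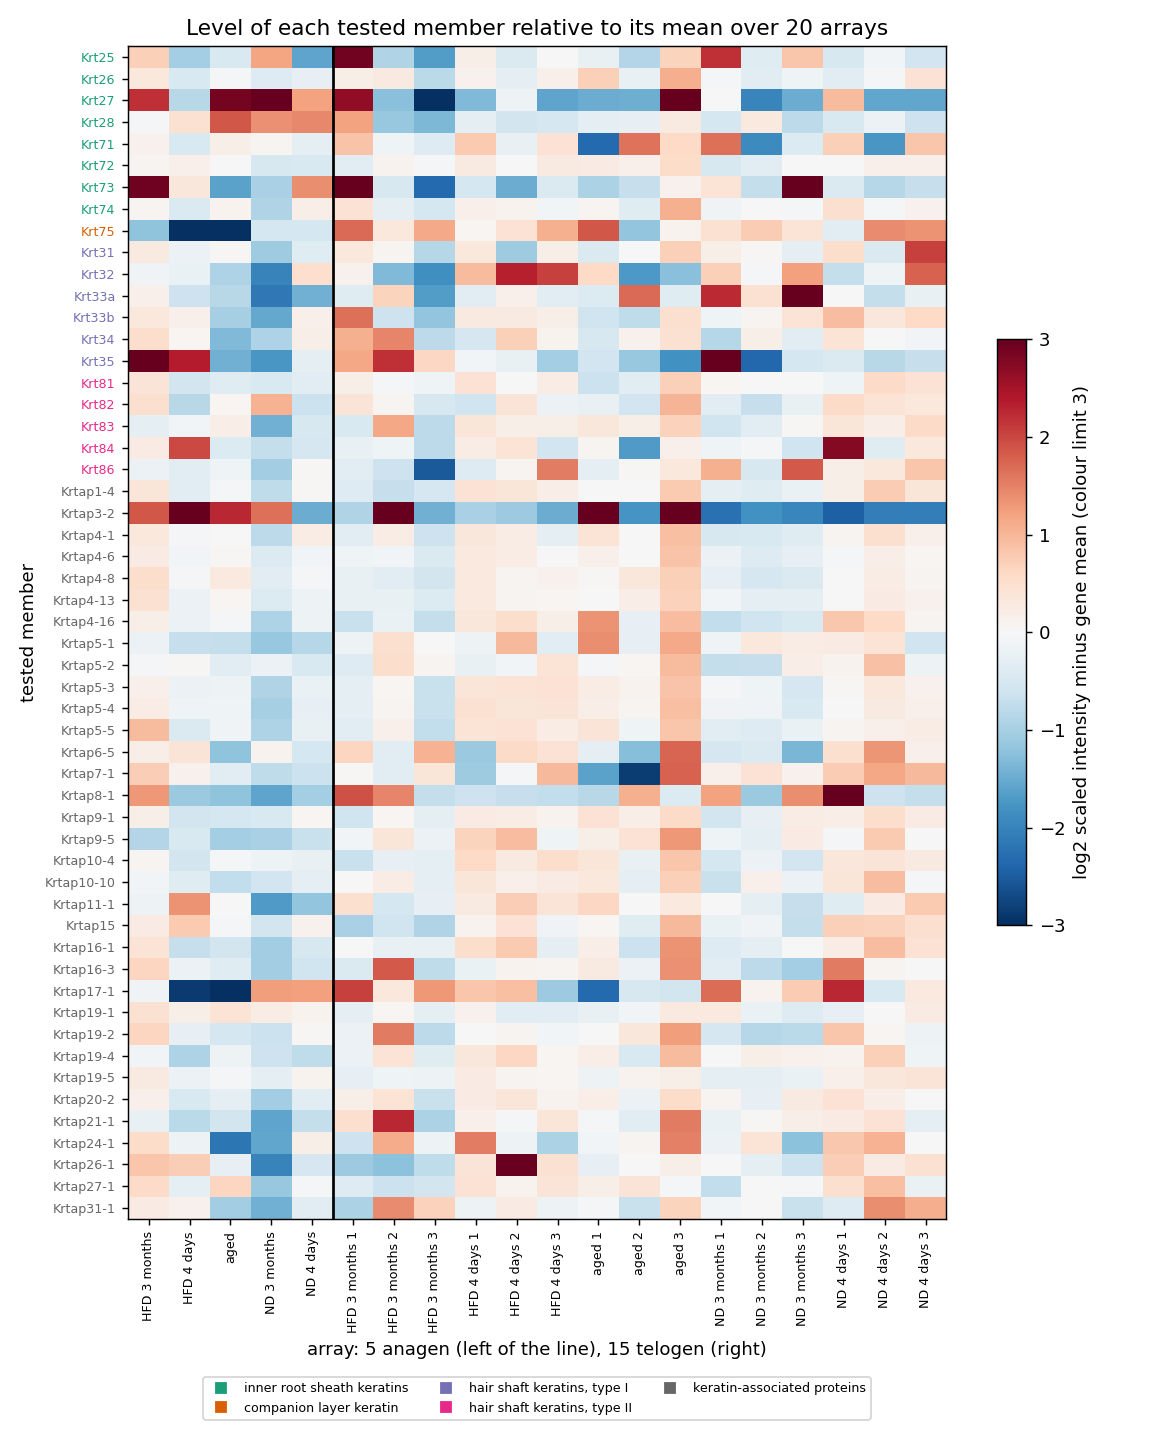
Log2 scaled intensity of the 54 tested members (rows, coloured by class) on the 5 anagen arrays left of the line and the 15 telogen arrays right of it, each minus the mean of its gene over 20 arrays. Krt27 and Krt28 are high on several anagen arrays and Krt75 is low on all 5, while the KAP genes are mostly high on the third aged telogen array and low on the ND 3 months anagen array.

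The first comparison asked which hair genes differ between anagen and telogen cells. Of the 54 tested genes, 1 rose in anagen and 2 fell (limma, adjusted p below 0.05), beside 6.12% of all 18723 genes tested, 2.81% higher and 3.31% lower. The inner root sheath keratin Krt28 was the one that rose, and the companion layer keratin Krt75 and the KAP gene Krtap9-5 fell. The median log2 difference over the 54 was -0.30, with 10 above 0 and 44 below, against -0.16 over all genes, of which 39.6% were above 0. Scaling each array on its median in place of its 75th percentile gave 20 above 0 and 34 below. Before adjustment, 14 members had p below 0.05 (4 higher and 10 lower), or 25.9% beside 22.9% of all genes. The 3 called genes were 5.56% of the 54, close to the share over all genes. In bulk RNA, fewer cells of a type and less RNA per cell cannot be told apart.

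**Figure D2:**
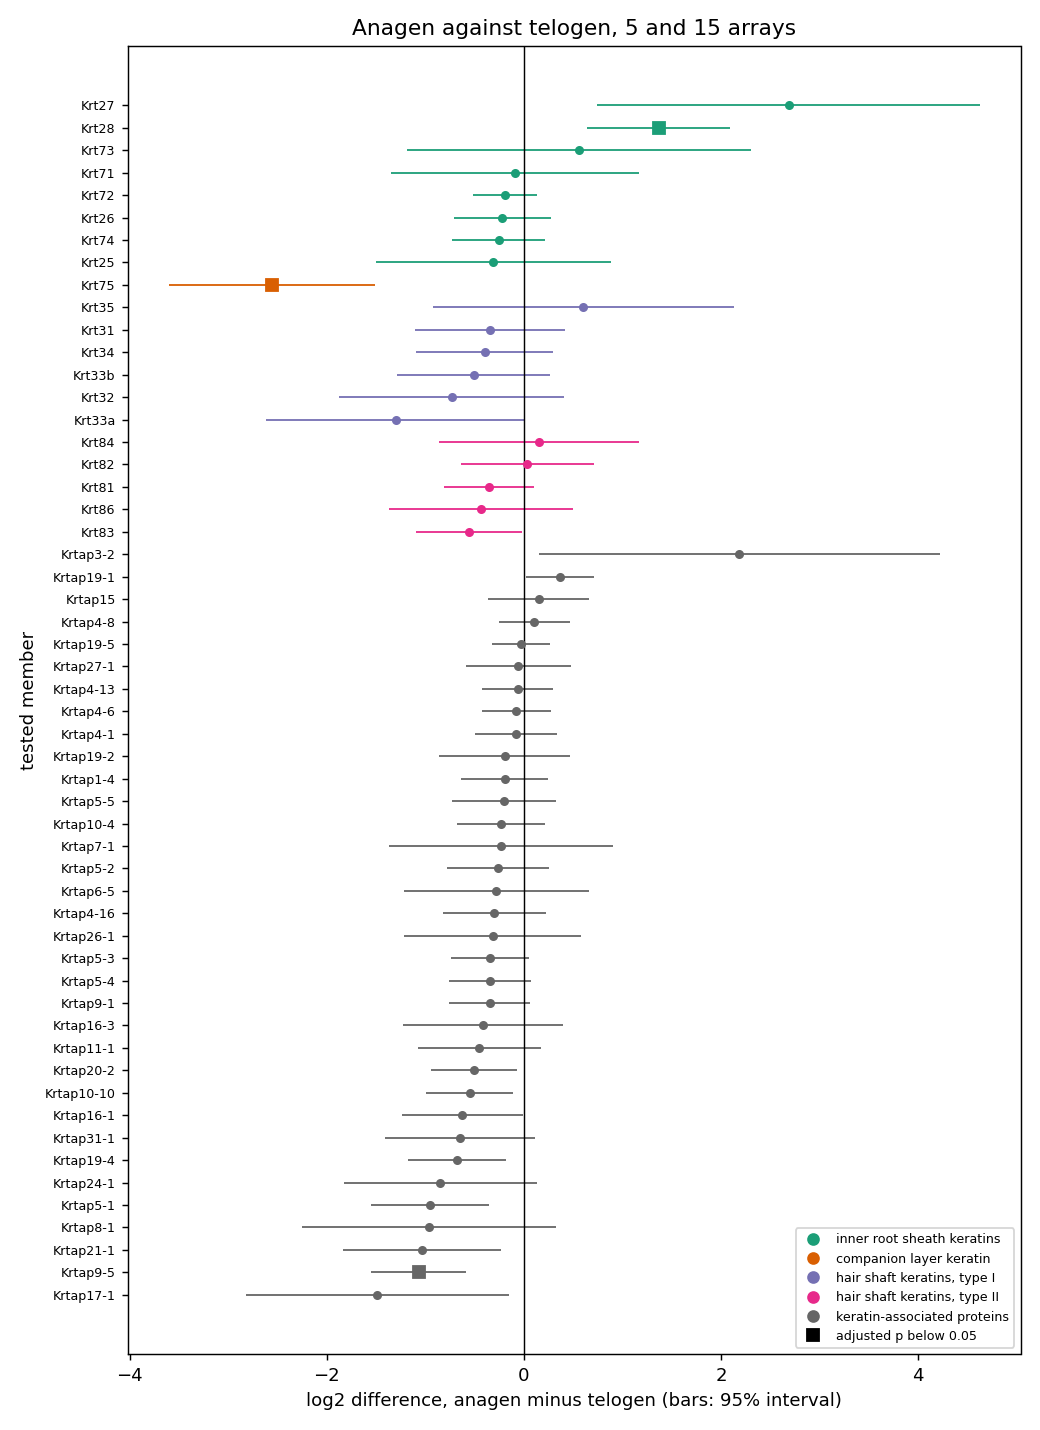
Log2 difference between anagen (5 arrays) and telogen (15 arrays) with its 95% interval for each of the 54 tested members, grouped by class. Squares mark the 3 members with an adjusted p below 0.05, Krt28 above 0 and Krt75 and Krtap9-5 below it, and 44 of the 54 points lie below 0.

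Among the inner root sheath keratins, Krt28 stood at -2.39 on the HFD 3 months anagen array, -1.88 on HFD 4 days, -0.48 on aged, -0.97 on ND 3 months and -0.90 on ND 4 days. The 15 telogen arrays lay between -3.69 and -1.15 (median -2.81). Both HFD anagen arrays fell inside the telogen range and the other 3 above it. With condition taken out, Krt28 was higher in anagen by 1.37 ± 0.34 (SE, adjusted p = 0.0257), and each of the 5 anagen arrays was above the telogen mean of its own condition, by 0.38 in HFD 3 months, 0.91 in HFD 4 days, 1.95 in aged, 1.72 in ND 3 months and 1.87 in ND 4 days. In the 3 conditions with both phases on 1 slide (aged, ND 3 months and ND 4 days) the difference was 1.85 (adjusted p = 0.0104). The call was lost without the HFD 4 days anagen array (1.48, adjusted p = 0.0514), the aged one (1.22, 0.0939), the ND 3 months one (1.28, 0.0987) or the ND 4 days one (1.24, 0.103).

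Krt27, another type I keratin of the same sheath and a neighbour of Krt28 on chromosome 11, stood at -0.45 on the HFD 3 months anagen array, -3.47 on HFD 4 days, 0.25 on aged, 2.01 on ND 3 months and -1.43 on ND 4 days. Its telogen levels ran from -5.63 to 0.53 (median -4.09), with the first HFD 3 months replicate at 0.03 and the third aged replicate at 0.53. Those 2 telogen arrays were above 3 and 4 of the 5 anagen arrays, and the difference of 2.69 ± 0.92 did not pass (adjusted p = 0.0947). Without the first HFD 3 months telogen array it was called (2.98, adjusted p = 0.0448), as it was without the third aged telogen array (2.96, adjusted p = 0.0494). Over the 20 fits that each left out 1 array, the difference ran from 1.91 to 3.31. It was lowest without the ND 3 months anagen array (adjusted p = 0.334). Over the 20 arrays Krt27 and Krt28 had a Pearson r of 0.74, given as a description since arrays share slides and groups. The other 6 sheath keratins had differences between -0.31 (Krt25) and 0.56 (Krt73), and none passed. Summed over the 8 genes, the log2 level was 0.26 to 2.41 in anagen (median 1.20) and -0.35 to 1.72 in telogen (median 0.39), with overlap. Such a sum is led by its brightest probes: on the ND 3 months anagen array, with a sum of 2.41, Krt27 alone stood at 2.01.

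Krt75 was at -3.19 on the HFD 3 months anagen array, -5.51 on HFD 4 days, -5.76 on aged, -2.50 on ND 3 months and -2.51 on ND 4 days. In telogen it ran from -3.16 to -0.12 (median -1.52). The HFD 3 months, HFD 4 days and aged anagen arrays lay below every telogen array and both ND anagen arrays below all but the second aged one. On the HFD 4 days and aged anagen arrays the probe was not well above background. The difference was -2.56 ± 0.50 (adjusted p = 0.00578), with all 5 anagen arrays below the telogen mean of their condition. It was -2.16 in the 3 conditions with both phases on 1 slide, where the call was lost (adjusted p = 0.129), and the call held whichever single array was left out (-2.93 to -2.18). A second Krt75 probe, well above background on only 2 arrays, gave -0.74, and the probes had a Pearson r of 0.20 over the 20 arrays, so the fall rests on 1 probe. Of 6 other keratins listed for the inner bulge and companion layer, 4 rose and 1 fell, beside 2.81% and 3.31% of all tested genes. Krt6b, Krt16, Krt79 and Krt17 rose by 6.06, 3.22, 1.44 and 0.66, Krt80 fell by 1.81, and Krt6a differed by -0.01 (adjusted p = 0.983).

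The hair shaft keratins showed no called difference. Of the 6 tested of type I, 1 was above 0 and 5 below (median -0.45), and of the 5 of type II, 2 were above 0 and 3 below (median -0.36). Krt33a was well above background on 2 of 5 anagen arrays and 12 of 15 telogen arrays, with levels of -6.52 to -4.22 in anagen and -6.05 to -0.35 in telogen, which overlap. Where a probe was below background its level is only a bound, and Krt33a did not pass (adjusted p = 0.222). Krt35, an early keratin of the shaft precursor cells, was at -1.91 on the HFD 3 months anagen array and -2.94 on HFD 4 days, and between -7.04 and -5.57 on the other 3. Telogen arrays spread over the same span, from -7.66 to -1.81, and Krt35 was well above background on only 7 of the 20 arrays. Krt81 was at 3.14 on the HFD 3 months anagen array and 2.21 to 2.42 on the other 4, against 2.12 to 3.48 in telogen, and its difference of -0.36 ± 0.22 did not pass (adjusted p = 0.332).

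**Figure D3:**
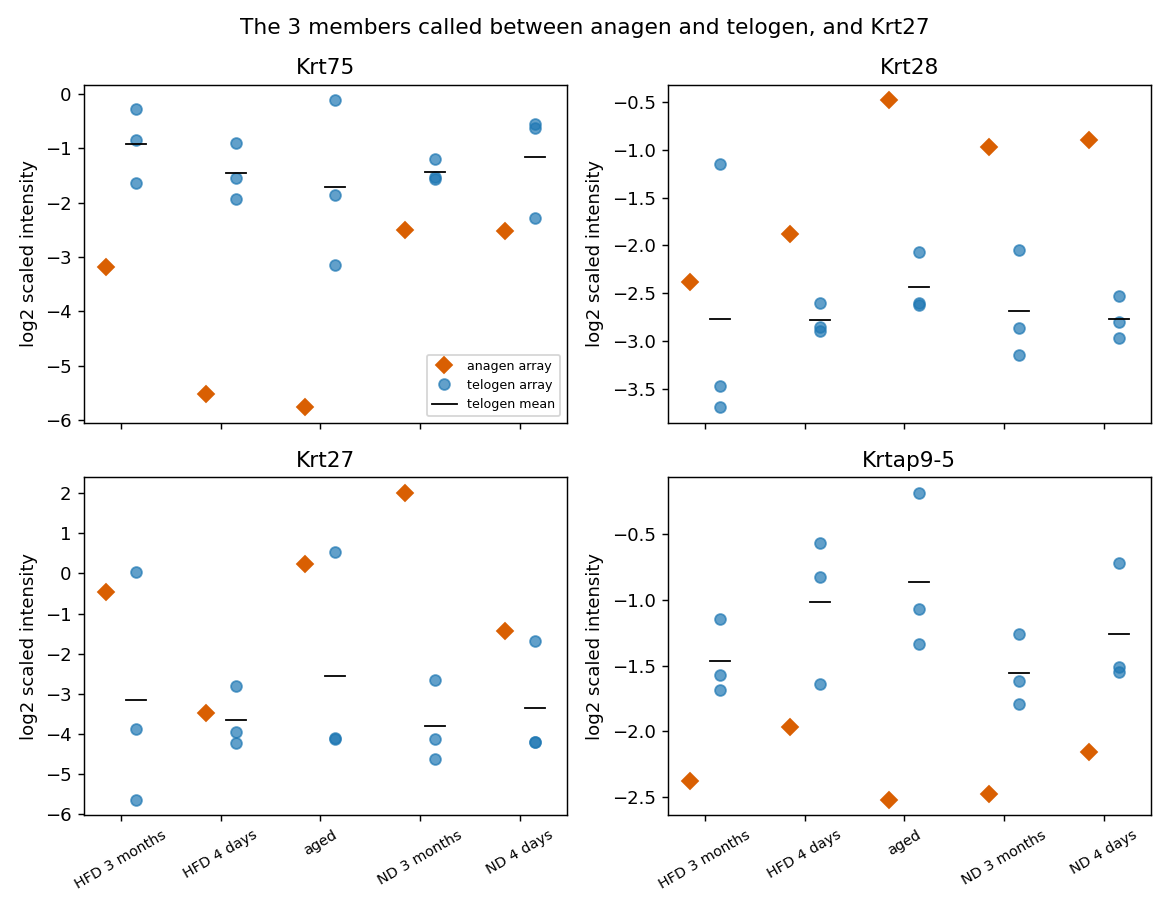
Log2 scaled intensity of Krt75, Krt28, Krt27 and Krtap9-5 by condition, with 1 anagen array (diamond) left of 3 telogen arrays (circles, mean as a line). Each anagen array of Krt75 and Krtap9-5 is below the telogen mean of its condition and each of Krt28 and Krt27 above it, and Krtap9-5 is the one whose phases do not overlap over all arrays.

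Of the 34 tested KAP genes, 4 were above 0 in anagen and 30 below, with a median of -0.31. Krtap9-5 was at -2.38, -1.97, -2.52, -2.48 and -2.16 on the anagen arrays of HFD 3 months, HFD 4 days, aged, ND 3 months and ND 4 days, against -1.79 to -0.19 in telogen (median -1.33). All anagen arrays lay below all telogen arrays. It was the only member of the 54 whose phases did not overlap, 1 lower and 0 higher, beside 0.716% and 0.79% of all genes. The difference was -1.07 ± 0.23 (adjusted p = 0.0108). It was -1.16 within the 3 conditions on 1 slide, where the call was lost (adjusted p = 0.0912), and the call was also lost without the aged anagen array (-0.92, adjusted p = 0.0507). Krtap5-1 came next, at -0.95 ± 0.28 (adjusted p = 0.0563), with anagen arrays at -1.73 to -0.78 and telogen arrays at -1.20 to 0.80.

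Krtap19-4 was well above background on 0 of 5 anagen arrays and 11 of 15 telogen arrays, and Krtap3-2 on 4 of 5 anagen and 3 of 15 telogen arrays. Each entered the test only through the phase where it was detected more widely, so no direction is drawn from their differences, and neither passed. The 3 telogen arrays with Krtap3-2 above background, the second HFD 3 months replicate and the first and the third aged replicate, stood at -1.46, -2.25 and -2.30 while the other 12 were at -6.94 or lower. By family, all 5 Krtap5 genes were below 0 (median -0.34) and 4 of 5 Krtap4 genes (median -0.08). Krtap5-3 and Krtap5-4, 2 genes named after their values were seen, tracked each other with a Pearson r of 0.99 over the 20 arrays. Their probes may read the same transcripts, which was not tested, and the same caution holds for Krtap4-8 with Krtap4-13 (0.95). Krtap19-2 and Krtap16-3, both on chromosome 16, had an r of 0.93.

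The promoters of the 3 called genes and of Krt27 are shown as those of the genes whose levels were described above array by array, with 250 bases before and 50 after the start of each gene (RefSeq, GRCm38.p6, sequence on the gene's own strand, 5′ to 3′). Capitals mark TATAAA, the TATA box, on the gene's strand, and CTTTGA, the core of LEF/TCF sites, on either strand (TCAAAG when on the other one).
Krt28 (chr11:99374854-99375153, minus strand): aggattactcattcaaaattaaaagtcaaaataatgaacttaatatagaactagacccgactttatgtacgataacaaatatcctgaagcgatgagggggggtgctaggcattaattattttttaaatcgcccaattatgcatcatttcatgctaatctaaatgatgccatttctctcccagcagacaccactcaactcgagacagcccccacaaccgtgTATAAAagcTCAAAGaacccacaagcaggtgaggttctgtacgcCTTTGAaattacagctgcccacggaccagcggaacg
Krt27 (chr11:99351069-99351368, minus strand): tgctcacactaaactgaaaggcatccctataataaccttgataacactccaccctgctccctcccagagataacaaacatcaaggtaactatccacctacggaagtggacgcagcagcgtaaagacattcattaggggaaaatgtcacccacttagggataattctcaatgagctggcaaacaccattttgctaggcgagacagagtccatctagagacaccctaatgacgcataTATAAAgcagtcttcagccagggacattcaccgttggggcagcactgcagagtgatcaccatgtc
Krt75 (chr15:101573855-101574154, minus strand): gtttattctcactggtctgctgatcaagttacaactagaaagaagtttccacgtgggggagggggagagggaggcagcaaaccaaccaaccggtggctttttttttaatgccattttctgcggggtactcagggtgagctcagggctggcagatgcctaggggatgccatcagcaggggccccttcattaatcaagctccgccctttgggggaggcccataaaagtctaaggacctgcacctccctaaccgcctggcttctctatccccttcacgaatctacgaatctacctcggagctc
Krtap9-5 (chr11:99948174-99948473, plus strand): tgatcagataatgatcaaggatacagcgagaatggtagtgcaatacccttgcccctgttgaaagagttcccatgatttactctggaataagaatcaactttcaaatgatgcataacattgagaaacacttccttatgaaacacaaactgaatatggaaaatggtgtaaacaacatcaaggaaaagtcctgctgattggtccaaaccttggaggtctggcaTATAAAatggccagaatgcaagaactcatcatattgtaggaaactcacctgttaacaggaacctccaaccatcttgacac

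The TATA box lies 30 bases before the start in Krt28 and in Krtap9-5 and 15 bases before it in Krt27, and Krt75 has no such letters in this window. Krt28 holds the LEF/TCF letters at -21 on the other strand and at 15 on its own. RefSeq windows matched 63 promoters of the 74 genes, and TATAAA was in 49 of them (77.8%), 39 of 48 KAP promoters (81.2%) and 10 of 15 keratin promoters (66.7%), against 8.32% of all 32851 promoters. CTTTGA on either strand, which does not overlap TATAAA, was in 30.2% against 16% of all, and GATAAG, the letters bound by GATA factors, in 9.52% against 7.44%. These are matches of letters, with no measurement of binding, and members in clusters share ancestry.

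Other genes of the hair programme were read from lists, beside 2.81% of all tested genes called higher in anagen and 3.31% called lower. Of 16 tested genes that act beside hair keratins in the shaft and sheath, Mt4 rose by 1.81 ± 0.31 (adjusted p = 0.00232) and Selenbp1 and S100a3 fell by 1.96 and 2.35. Tchh, which encodes trichohyalin, the matrix protein of the inner root sheath, differed by -0.56 ± 1.08 (adjusted p = 0.779). Of 18 tested regulators of hair lineages, 0 rose and 2 fell, Bmp2 by 1.88 and Hr by 0.92. Hoxc13, a direct activator of hair keratin genes, differed by 0.15 ± 0.30, Foxn1, which regulates shaft keratins, by -0.03 ± 0.59, Msx2 by -0.84 ± 0.27, Lef1 by -0.58 ± 0.42 and Gata3, a regulator of the inner root sheath, by 0.01 ± 0.21, with adjusted p of 0.0771 for Msx2 and above that for the others.

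Markers of some other cell states moved with phase, and the counts below stand beside 6.12% of all tested genes called. A summed level is led by the brightest probes of its list and does not describe each gene in it. Of 12 cell division genes, 10 rose and 0 fell, with a median difference of 3.09 and a summed log2 level of 6.42 to 7.12 in anagen against 4.58 to 6.06 in telogen. Of 12 bulge stem cell genes 4 fell (Cd34, Fgf18, Col17a1 and Krt15), and their summed level was 7.94 to 8.42 in anagen and 8.26 to 9.04 in telogen. Of 11 genes of the upper epidermal layers, Lce1i and Krt1 rose, with sums of 7.50 to 8.09 in anagen and 6.82 to 8.17 in telogen, and of 9 fibroblast genes Dcn rose and Col6a1 and Col1a2 fell, with sums of 2.67 to 3.40 and 3.65 to 5.35. Melanocyte genes gave 1 lower of 8 tested (Mitf, sums of 1.53 to 2.90 and 2.14 to 3.47) and red blood cell genes 1 lower of 4 (Hba-a2, sums of -1.27 to 0.39 and -1.31 to 2.60), while 0 of 10 sebaceous, 0 of 6 macrophage and Langerhans and 0 of 2 endothelial genes passed. The part of these shifts in the keratin results was not tested.

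The anagen arrays of single conditions had no replicates and no test. Against the telogen mean of its condition, the member median was 0.46 in HFD 3 months, -0.44 in HFD 4 days, -0.38 in aged, -0.54 in ND 3 months and -0.49 in ND 4 days. The medians over all genes had the same signs, at 0.22, -0.24, -0.16, -0.35 and -0.22 in that order, so the sign of HFD 3 months differed from the other 4 over all genes too. Its anagen array was on another slide than its telogen arrays, as was that of HFD 4 days. More than 2-fold higher and lower in anagen were 8 and 2 members in HFD 3 months (16.1% and 12.8% of all genes), 4 and 6 in HFD 4 days (15.2% and 19.1%), 2 and 13 in aged (16.2% and 18.9%), 4 and 18 in ND 3 months (13.5% and 24%) and 3 and 13 in ND 4 days (15.6% and 15.2%). The differences had the same sign in all 5 conditions for 4 members on the higher side and 7 on the lower, beside 9.25% and 9.66% of all genes. Between single anagen arrays, 26 members were more than 2-fold higher and 3 lower in HFD than in ND 3 months, beside 32.6% and 14% of all genes, with a member median of 0.97 against 0.44 over all genes. The ND 3 months anagen array had the lowest share of spots well above background, 60.7% against 70.26% on that of HFD 3 months. Each of the 4 pairs of anagen arrays set 1 slide against another. In HFD against ND 4 days, 5 were higher and 4 lower (12.2% and 14.4%), in aged against ND 3 months 9 and 5 (22.6% and 14.4%), and in aged against ND 4 days 4 and 8 (14.1% and 17.3%).

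The diet comparisons asked whether a high fat diet changes these genes in telogen cells. After 3 months of HFD 0 of the 54 members passed against ND, beside 0% of all genes (limma, 3 arrays per group), and 2 had an unadjusted p below 0.05 (3.9% of all genes). The median difference was 0.04, with 29 above 0 and 25 below (46.3% of all genes above 0), or 22 and 32 with arrays scaled on the median. Groups did not overlap in 2 members on the higher side and 2 on the lower, beside 4.15% and 5.7% of all genes. HFD and ND arrays of equal duration shared a slide, with 1 row for each diet, and the part of the row was not tested. The 2 at an unadjusted p below 0.05 were the shaft keratins Krt33a and Krt86. Krt33a was at -4.73, -3.70 and -6.05 on the HFD arrays and -2.13, -3.91 and -0.35 on the ND arrays, which overlap, and differed by -2.70 ± 0.84 (unadjusted p = 0.00737). Krt86 was at -5.15, -5.43 and -7.34 in HFD, below background on all 3, and -3.75, -5.29 and -2.97 in ND, above it on all 3. The first HFD array was above the second ND array, so the groups overlap. With HFD held at the background limit, the ND mean was at least 2.09-fold higher. The limma test on the levels as measured gave an unadjusted p of 0.0141. Neither had an adjusted p below 0.99. Over all named genes, 71.8%, 77.6% and 68.9% were well above background on these HFD arrays. The ND arrays had 81.5%, 77.4% and 78.6%, and the part of this in the result for Krt86 was not tested.

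After 4 days of HFD 0 of the 54 passed, beside 0% of all genes, and 0 had an unadjusted p below 0.05 (4.36% of all genes). The median was -0.10, with 22 above 0 and 32 below (45.5% of all genes above 0), or 12 and 42 with arrays scaled on the median. Groups did not overlap in 3 members on the higher side and 2 on the lower, beside 3.73% and 5.97% of all genes. The smallest p was that of Krt32, a cuticle keratin of the shaft, at -0.37, 1.00 and 0.74 on the HFD arrays against -2.03, -1.46 and 0.45 on the ND arrays, a difference of 1.47 ± 0.78 with overlap. At 3 months Krt32 was at -1.18, -2.65 and -3.17 in HFD against -0.60, -1.36 and -0.09 in ND, a difference of -1.65 ± 0.78. All these Krt32 values are those of 1 of its 2 probes, both well above background on all 20 arrays. The probes had a Pearson r of 0.46 over the arrays and gave -0.73 and 0.08 between phases, the first being the one used. The difference between the 2 diet effects was -3.12 for Krt32 (unadjusted p = 0.0145) and -2.85 for Krt33a (unadjusted p = 0.0335), and 0 members passed in this test of diet by duration (these 2 at an unadjusted p below 0.05, beside 3.74% of all genes, and 32 above 0, beside 50.2%). The 95% interval of a diet difference reached 0.95 to either side in the median member.

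The ageing comparisons set aged mice against both ND groups. Against ND 3 months, 0 of 54 members passed, beside 0.0641% of all genes, and 13 had an unadjusted p below 0.05, or 24.1% beside 11.9% of all genes. The median difference was 0.48, with 41 of 54 above 0 (75.9%, against 53.5% of all genes), or 33 with arrays scaled on the median, and 31 of the 34 KAP genes were above 0 (median 0.59). Groups did not overlap in 16 members on the higher side and 1 on the lower, or 29.6% and 1.85%, beside 11.6% and 6.46% of all genes. Krtap4-16 had the smallest p, at -0.82, -2.41 and -1.23 on the aged arrays against -2.90, -2.76 and -2.61 on the ND 3 months arrays, a difference of 1.27 ± 0.38 with every aged array higher (adjusted p = 0.283). Krtap4-8 was at 2.53, 2.82 and 3.19 in aged against 2.23, 1.98 and 2.04 in ND 3 months, again without overlap (0.76 ± 0.24, adjusted p = 0.299). Without the third aged array the member median was 0.17.

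Against ND 4 days the members were evenly split, with 27 above 0 and 27 below (43.8% of all genes above 0), or 20 and 34 with arrays scaled on the median. Here 0 of 54 passed, beside 0.0374% of all genes, 2 had an unadjusted p below 0.05 (7.85% of all genes), and the median was 0.00. Groups did not overlap in 1 member on the higher side and 2 on the lower, beside 3.97% and 6.52% of all genes. Krtap3-2 was at -2.25, -7.81 and -2.30 in aged, above background on 2 arrays, against -8.48, -8.12 and -8.12 in ND 4 days. With ND 4 days held at the background limit, the aged mean was 3.50-fold higher (adjusted p = 0.536 for the levels as measured). That mean rests on the 2 arrays above background and takes the second aged array as measured, so it is no strict lower limit. Krtap17-1 was at -4.48, -2.61 and -2.69 in aged against 0.13, -2.59 and -1.85 in ND 4 days, lower by 1.82 ± 0.81 on the log2 scale without overlap (adjusted p = 0.623). Between the ND groups themselves, 5-month mice (3 months of diet) against 2-month mice (4 days), 0 of 54 passed beside 0.016% of all genes and 7 had an unadjusted p below 0.05 (11.9% of all genes). The median was -0.44, with 10 above 0 and 44 below (41.4% of all genes above 0), and groups did not overlap in 1 member on the higher side and 20 on the lower (4.41% and 19.8% of all genes). Of the 34 KAP genes, 31 were below 0 (median -0.54). Krt33a, the 1 without overlap on the higher side, differed by 2.55 ± 0.84 (adjusted p = 0.345). The 2 ageing comparisons and this one share control arrays, so they are not independent of each other.

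**Figure D4:**
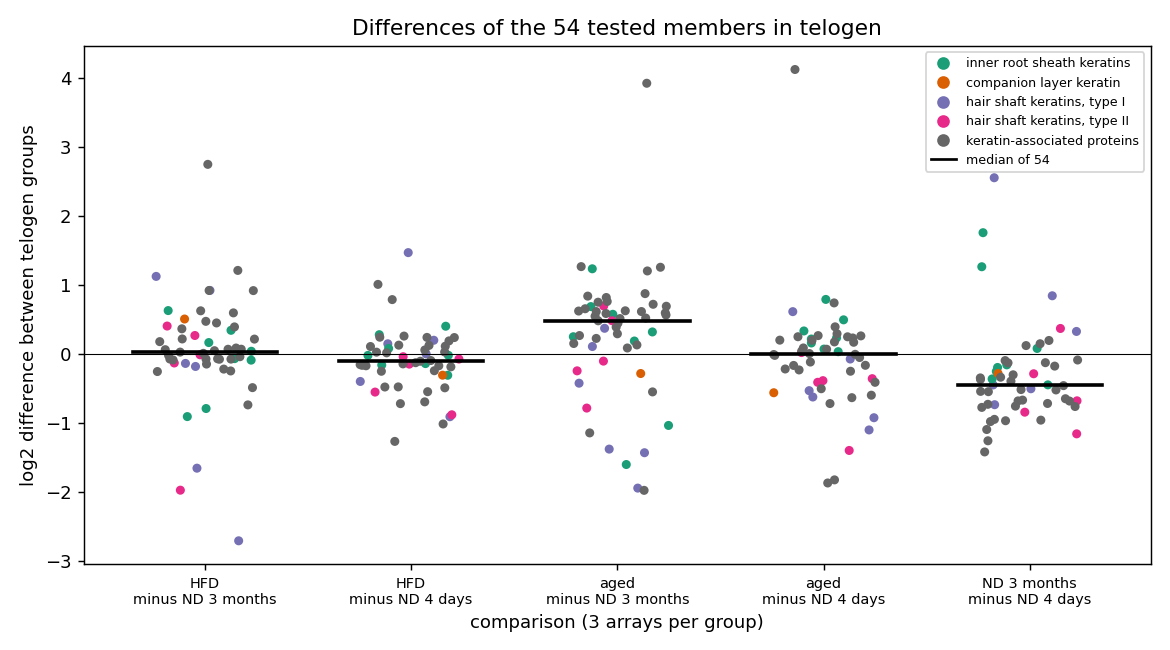
Log2 differences of the 54 tested members in the 5 telogen comparisons, each point a gene coloured by class and each line the median of the 54. The medians are 0.04 and -0.10 for the diets, 0.48 and 0.00 for aged against the ND groups and -0.44 between the ND groups, where most KAP genes lie below 0.

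Aged against either ND group, and the 2 ND groups against each other, set 1 slide against another, and there slide and group cannot be told apart. Relative to each gene's mean, the KAP genes had a median between -0.42 and 0.07 on the 6 telogen arrays of slide 1, between 0.09 and 0.40 on the 6 of slide 2 and between -0.05 and 0.85 on the 3 aged arrays of slide 3. Every telogen array of slide 1, HFD and ND alike, was thus below every one of slide 2, while slide 3 overlapped both. Telogen arrays of slides 2 and 3 minus those of slide 1 had a median of 0.49 over the KAP genes (30 of 34 above 0), 0.21 over the keratins (14 of 20) and 0.09 over all genes (56.7% above 0). In anagen, with 1 array on slide 1, the same difference was 0.74 over the KAP genes (29 of 34), 0.84 over the keratins (14 of 20) and 0.24 over all genes. The KAP median was 0.25 on the HFD 3 months anagen array (slide 2) and -0.78 on that of ND 3 months (slide 1). On slides 2 and 3, the ND 4 days, HFD 4 days and aged anagen arrays were at -0.23, -0.18 and -0.20, within the telogen range of slide 1. With slide as a block, the medians turned to -0.40 for aged against ND 3 months and to 0.43 for the ND groups. Those over all genes turned as well, to -0.29 (0.06 without the block) and to 0.23 (-0.14 without it).

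**Figure D5:**
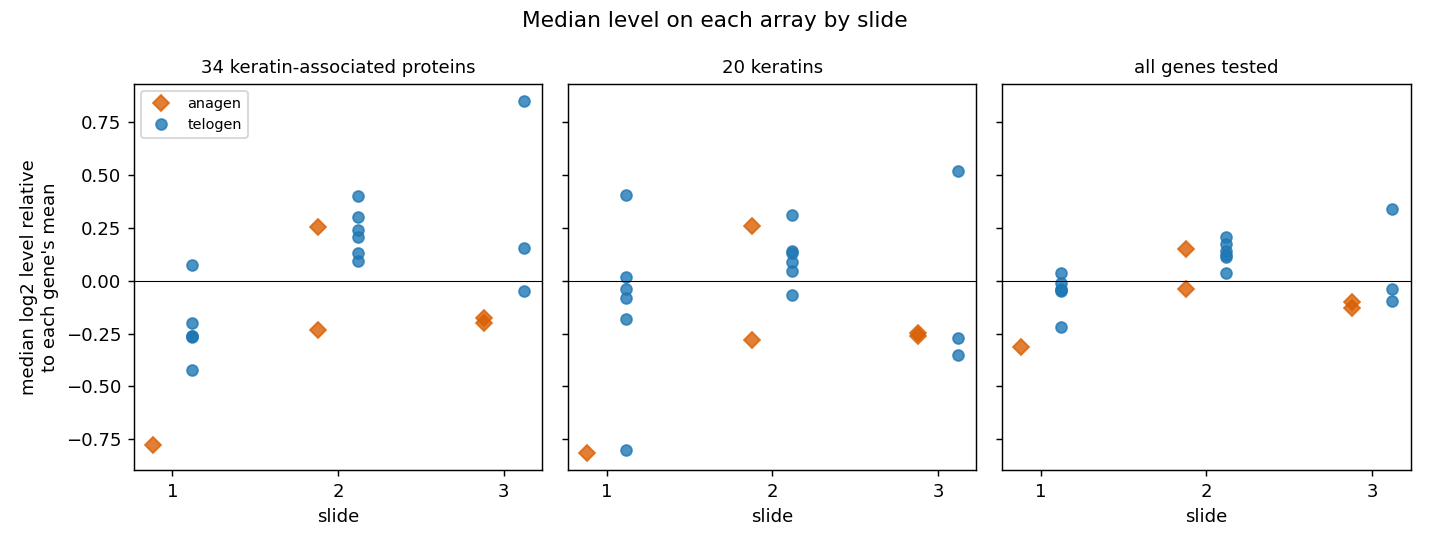
Median log2 level of the 34 tested KAP genes, the 20 tested keratins and all genes on each array, relative to each gene's mean over 20 arrays, by slide, with anagen as diamonds and telogen as circles. KAP medians on slide 1 lie at 0.07 or lower in both phases. So do those of the ND 4 days, HFD 4 days and aged anagen arrays and the second aged telogen array on the other slides. The third aged telogen array is highest at 0.85.

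Members also differed in how much they varied within telogen groups. The standard deviation within groups, pooled over the 5 telogen groups, had a median of 0.83 over the 20 keratins and 0.43 over the 34 KAP genes, against 0.67 over all genes. Some keratins were high on 1 array of a group and low on the others. Krt73 was at -0.76, -4.62 and -6.47 in HFD 3 months telogen and -3.74, -4.87 and -0.54 in ND 3 months telogen, and Krt84 at -1.48, -4.61 and -3.93 in ND 4 days telogen. By contrast, Krtap19-5 stayed between -0.61 and 0.06 over all 15 telogen arrays, and between -0.62 and -0.05 in anagen.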

How the data were processed

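RNA of 20 samples was labelled with Cy3 and hybridised to 1 array each, per the labels' protocols. The deposited scanner files hold processed spot intensity, background-subtracted, made with Agilent Feature Extraction 10.7.1.1 per the submitters' processing notes. The deposited series table holds a signal per probe that matched the same intensity divided by the array's 75th percentile within 0.019 (log2, for values above 0.1), with no centring.

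Spots of 1 probe were averaged after outliers were left out, and the log2 of the mean was reduced by the array's 75th percentile. RefSeq accessions (GRCm38.p6) gave 32989 of 56605 probes 1 gene symbol, 0 several and 23616 none. Of 43395 tested probes, the brightest on average stood for each of 18723 genes. One limma fit covered the 15 telogen arrays, with a mean for each group. Anagen was set against telogen in a second fit of 20 arrays that included a term for condition (limma 3.58.1, R 4.3.3). Two-sided moderated p-values were adjusted by Benjamini and Hochberg's method across every tested gene and called below 0.05. Where a group below background was held at the background limit, each array took its lowest signal that counts as well above background. The probe's own value was used where that is higher. An "at least" fold made this way compares group means, so single arrays can overlap. With single arrays, values and counts past 2-fold are given with no test. The number of arrays limits the precision: the 95% half-width of a log2 difference had a median over members of 0.62 between phases and 0.95 between telogen groups. On simulated data for the 18723 genes, the test recovered 26.9%, 73.1% and 90.9% of genes changed by log2 sizes of 1, 2 and 3 between phases, and 2.99%, 40.3% and 57.6% between HFD and ND 3 months telogen. The simulated noise was independent, with each gene's spread within telogen groups. No differences between slides or conditions and no background limit were put in, so recovery on the real arrays may differ.

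The members, lists and tests were chosen with earlier results of these data known. Named are all keratins, the 5 KAP genes with the smallest p in each comparison, up to 15 KAP genes above background on all arrays, up to 3 leading genes of each list and Hoxc13, Foxn1, Msx2, Lef1, Tchh, Krt15 and Cd34, and any other gene was named after its values were seen. KAP genes were grouped by family symbol because no protein table was used here for the planned classes by composition. Alternatives were other normalizations (series table, quantile, median, another percentile), normexp with an offset of 50, other filters, the mean over probes, eBayes trend and robust, array weights, slide and replicate blocks, other arrays in the fit and leaving out each array.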

Additional observations from a re-analysis of the deposited data

Results flagged for a closer look

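Among the 5 anagen arrays, 47 members were examined for an array that stands far from the others, which chance alone gives for about 1 group in 20. Only Krt81 and Krtap8-1 had such an array, a count near that rate. Krt81 stood apart on the HFD 3 months anagen array at 3.14, against 2.21 to 2.42 on the other 4. Krtap8-1 stood apart on the same array at 0.58, against -2.30 to -1.72 on the other 4. The ND 4 days anagen array of the same slide was among those 4, with Krt81 at 2.42 and Krtap8-1 at -1.72. On the 3 HFD 3 months telogen arrays, which lie on another slide, Krtap8-1 was at 1.21, 0.75 and -1.43 and Krt81 at 2.94, 2.72 and 2.64. Relative to each gene's mean, the HFD 3 months anagen array had a median of 0.25 over the members and 0.15 over all genes. The other 4 anagen arrays were at -0.78 to -0.18 and at -0.31 to -0.04.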

How the results depend on the processing

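The count of 3 members called between anagen and telogen, 1 higher and 2 lower, was the same under the series table, quantile and median scaling, the other percentile, normexp, both filters, the mean over probes and eBayes with trend and robust. Krt75 was not among the genes above background on all 20 arrays, where Krtap5-1 passed (adjusted p = 0.0437). The count was 6 with array weights (1 higher, 5 lower) and 1 with a slide block (Krt28). It was also 1 in the conditions with both phases on 1 slide (Krt28) and 1 without the ND 3 months and aged anagen arrays (Krt75), these last 2 chosen after seeing the data. The slide block and the conditions on 1 slide gave the same differences between phases (1.85 for Krt28), so they are not separate checks. Leaving out each array gave 1 to 7, with 1 without the aged anagen array, 5 without the second aged telogen array and 7 without the HFD 3 months anagen array. With a slide block, Krt75 was at -2.16 (adjusted p = 0.0707) and Krtap9-5 at -1.16 (adjusted p = 0.0539). The slide block turned the member median to -0.40 in aged against ND 3 months (0.48 without it) and to 0.43 between the ND groups (-0.44 without it). That fit separates slide from group only through the 2 HFD anagen arrays. The cause of these changes was not tested.

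Leaving out 1 array moved the member median between -0.54 and -0.20 for anagen, -0.05 and 0.20 for HFD against ND 3 months, -0.12 and -0.01 for 4 days, 0.17 and 0.67 for aged against ND 3 months, -0.27 and 0.17 for aged against ND 4 days, -0.47 and -0.42 between the ND groups and 0.02 and 0.28 for diet by duration. The telogen comparisons called 0 members in every setting. With the median of each array as its scale, the median over all genes between phases was 0.06 in place of -0.16, and 20 members were above 0 in place of 10. Under it, 22 members were above 0 in HFD against ND 3 months (29 otherwise), 12 at 4 days (22), 33 in aged against ND 3 months (41) and 20 in aged against ND 4 days (27). With the replicate number as a block over telogen arrays, 0 members were called in each comparison. Deviations of same-numbered arrays had a mean correlation of -0.002 (30 pairs, -0.139 to 0.059). Pairs with unlike numbers had a mean of 0.001 (60 pairs, -0.105 to 0.109). Telogen arrays of the same number also shared a slide column, and what else they may share was not tested. A probe not well above background carries only a bound, which limits 20 of the 74 members most.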
